A study of Mus musculus with 24 samples.

Results

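Synaptic vesicle release genes were taken by name from the gene table: the synaptotagmins (Syt), synapsins (Syn), syntaxins (Stx), vesicle-associated membrane proteins (Vamp), complexins (Cplx), RIM proteins (Rims), Rab3 proteins (Rab3), Munc13 proteins (Unc13), syntaxin-binding proteins (Stxbp), vesicle glycoproteins (Sv2), Snap25, synaptophysin (Syp) and the synaptogyrins (Syngr). The table held 71 such genes among 32884, and the 64 with a mean level of at least 0.5 FPKM (fragments mapped, scaled to transcript length and library size) over the 12 input libraries are described here. The rule used the name and that mean, and no difference between groups. The remaining 7 were Cplx3, Cplx4, Stx11, Syngr4, Syt8, Syt15 and Vamp9, whose means were at most 0.243 FPKM.

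Mouse spinal cord was sampled 3, 7 and 14 days after spared nerve injury (SNI), a model of neuropathic pain in which 2 branches of the sciatic nerve, the common peroneal and the tibial nerve, are tied and cut. Sham surgery exposed the sciatic nerve and its branches and left them whole. The groups were SNI day 3, SNI day 7, SNI day 14 and sham, each with 3 input libraries, which measure poly(A) RNA, and 3 libraries of RNA fragments pulled down with an antibody to N6-methyladenosine (m6A), 24 samples in all. Sham cords carried the label day 3, so injury and time after surgery cannot be told apart on days 7 and 14. Strain, age, sex, cord segment and side were not in the labels, and the labels do not say whether libraries came from separate animals, so every p-value reflects the spread of these libraries alone, and that spread may be technical.

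A neuron releases transmitter when a vesicle docked at the active zone fuses with the plasma membrane. Fusion is driven by the SNARE complex, in which a synaptobrevin on the vesicle (Vamp1 or Vamp2) zips together with a syntaxin and Snap25 on the plasma membrane after priming by Munc13. Complexin holds the assembled complex ready, synaptotagmin triggers fusion on binding calcium, RIM and Rab3 keep vesicles at the release site, and synapsins tether the reserve pool. In the dorsal horn these proteins serve terminals of primary afferents, whose cell bodies and most of whose mRNA lie outside the cord in the dorsal root ganglia, and terminals of the cord's own neurons, whose mRNA is in the sampled tissue.

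Library 3 of SNI day 7 and library 3 of sham stood apart from the remaining 10 input libraries. The correlation of log2 levels was 0.983 between them, 0.925 to 0.942 between them and the remaining 10, and 0.979 to 0.988 among those 10. FPKM summed to 180340 to 201358 per library, and sequencing depth is unknown because no counts were analysed here. Among the 14 release genes at 50 FPKM or more, the median coefficient of variation between libraries was 0.900% on SNI day 3 and 0.971% on SNI day 14. It was 11.8% on SNI day 7 and 10% in sham with library 3, and 0.708% on SNI day 7 and 0.846% in sham without it. Relative to libraries 1 and 2 of their own groups, 6 release genes were lower by over 0.5 (log2) in both libraries that stood apart, 8 were higher by over 0.5 in both, 37 stayed within 0.5 in both and 13 were mixed. Those lower were Syngr3, Syngr2, Syt5, Syt3, Stx1a and Rab3a, and those higher were Syt10, Stxbp5, Unc13c, Rims2, Rab3c, Stxbp6, Syt14 and Syt4. The limma fit was therefore run with all 12 libraries and without these 2, and single genes are given from the fit with all 12 unless said otherwise.

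Markers of the cell types of the cord were abundant. Those of neurons of the sensory ganglia summed to 0.437 to 1.79 FPKM per library, with 5 of the 6 in the table below the floor of 0.5 FPKM, and those of Schwann cells summed to 1.01 to 2.73 FPKM, with 4 of 5 below that floor. The summed level of 13 neuronal markers was 3105 to 3122 FPKM on SNI day 3, 2214 to 3125 FPKM on SNI day 7, 3038 to 3058 FPKM on SNI day 14 and 2414 to 3162 FPKM in sham cords, the lowest of SNI day 7 and of sham being library 3.

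Release genes spanned levels from 479 FPKM for Cplx1 to 0.922 FPKM for Vamp5 as means over 12 libraries. Of the 64, 8 had at least 100 FPKM, 36 had at least 10 FPKM and 62 had at least 1 FPKM. The most abundant included Cplx1, Snap25 (359 FPKM), Syt11 (190 FPKM), Rab3a (175 FPKM), Syp (161 FPKM) and Vamp1 (120.3 FPKM). Of the synaptobrevins, Vamp1 was above Vamp2 (81.8 FPKM) in FPKM, a scale already divided by transcript length. Among the calcium sensors of fast release, Syt2 (74.4 FPKM) was above Syt1 (23.8 FPKM), while Syt11, an isoform that does not bind calcium, was the most abundant synaptotagmin. Together the 64 genes summed to 2490 to 2947 FPKM, or 1.37 to 1.48% of all FPKM in a library.

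**Figure D1:**
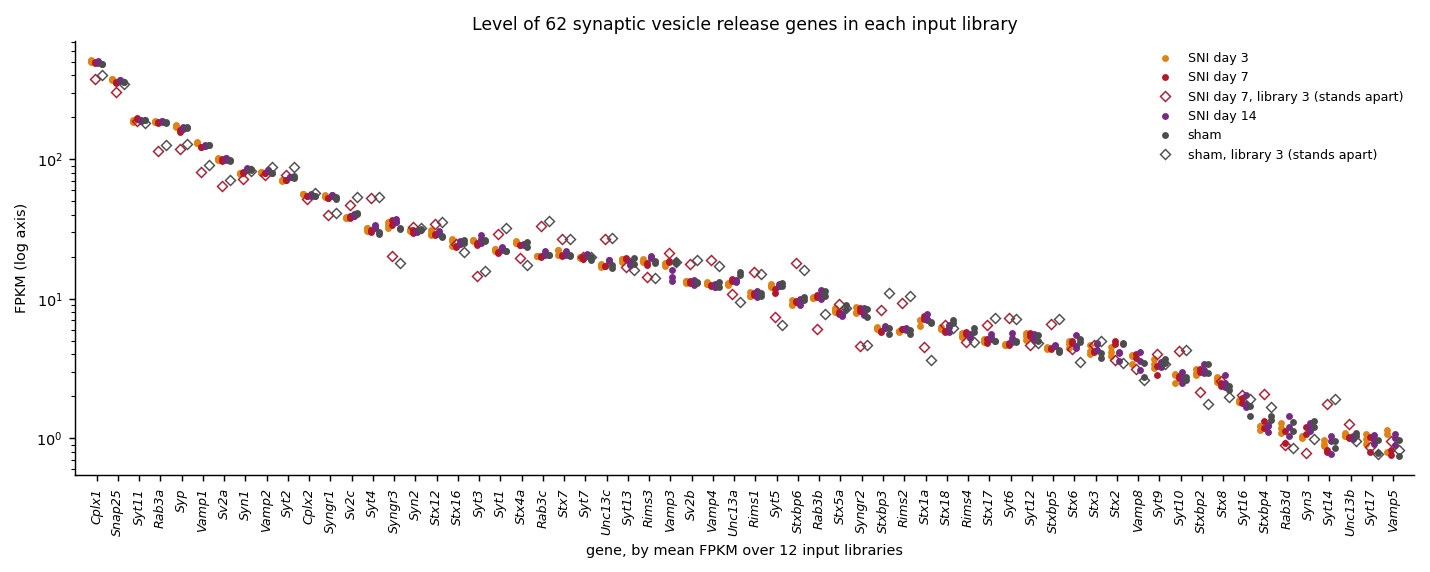
FPKM (log axis) of 62 release genes in each of the 12 input libraries, by mean level, with SNI days 3, 7 and 14 left of sham. Points of a gene lie close together except the open diamonds, which are library 3 of SNI day 7 and of sham.

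After injury the RNA levels of the release machinery stayed close to those of sham. Of the 64 genes, 0 passed the limma test (Benjamini-Hochberg adjusted p below 0.05 over 15564 tested genes) on SNI day 3, SNI day 7 or SNI day 14 against sham, where 0.0578%, 0.103% and 0.0514% of all tested genes passed. At an unadjusted p below 0.05, 2, 1 and 2 release genes were reached in the limma fit on the 3 days, against 6.24%, 2.53% and 4.92% of all tested genes. The median log2 fold change of the release genes was -0.01, -0.02 and 0.03 on the 3 days, beside 0.03, 0.01 and 0.03 over all tested genes, and the single genes ranged from -0.31 to 0.36, from -0.15 to 0.26 and from -0.32 to 0.45. The 95% interval of every one of the 64 lay within 1 log2 unit of 0 on each day, on the scale of FPKM + 0.5. On that scale the interval of 48, 59 and 50 genes lay within a change of 1.5 times in either direction. For genes of low level this does not exclude a change of 1.5 times in FPKM, and the intervals reflect the spread of these libraries alone. The 3 comparisons share the sham libraries. In whole cord, fewer cells of a type and less RNA per cell cannot be told apart.

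Groups did not overlap for 17, 2 and 14 of the 64 genes (26.6%, 3.12% and 21.9%) on SNI days 3, 7 and 14 against sham, beside 20.9%, 4.43% and 18.3% of all tested genes. Those above sham on SNI day 3 were Cplx1, Rab3a, Snap25, Stx8, Syngr1, Syngr3, Syp and Vamp1, and on SNI day 14 they were Cplx1, Rab3a, Rims3, Snap25, Stx1a, Sv2a, Syngr1, Syngr3 and Syt7. Those below sham included Rab3c, Stxbp4, Sv2c, Syn1, Syn2, Syt2, Syt6 and Vamp3 on SNI day 3, Syn1 on SNI day 7, and Stx5a, Stxbp4, Sv2c, Syn2 and Vamp3 on SNI day 14.

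Without the 2 libraries that stood apart, 7, 0 and 7 release genes (10.9%, 0% and 10.9%) passed on SNI days 3, 7 and 14, beside 7.07%, 1.11% and 4.71% of all tested genes. At an unadjusted p below 0.05 in limma, 17, 14 and 20 (26.6%, 21.9% and 31.2%) were reached, beside 21.9%, 12.9% and 19.8% of all tested genes. On SNI day 3, Cplx1 and Snap25 were higher and 5 genes, among them Sv2c, Syn1, Syt2 and Unc13a, were lower. On SNI day 14, Snap25, Syt4, Unc13c and Vamp2 were higher and Stx5a, Unc13a and Vamp3 were lower. All 14 of these differences were small, from -0.33 to 0.15 in log2. Sv2c, Syt4, Unc13a and Vamp2 are described because this fit called them, a choice made after its values were seen. This fit rests on libraries of a group that lie about 1% apart, and with close libraries averaged into 6 samples 0 release genes passed in any comparison, also at an unadjusted p below 0.05 in limma, with 2 residual degrees of freedom. In the same fit without the 2 libraries, 7 of 7 oligodendrocyte markers were lower on SNI day 3 and on SNI day 14, and 5 and 4 of 7 microglial markers were higher. On SNI day 7, 3 of 7 oligodendrocyte and 5 of 7 microglial markers were higher in that fit. The oligodendrocyte markers summed to 4159 FPKM in each library on SNI day 3, 4340 to 4963 FPKM on SNI day 7, 3907 to 3926 FPKM on SNI day 14 and 3858 to 4746 FPKM in sham cords. The microglial markers summed to 118 to 120.5 FPKM on SNI day 3, 119 to 145 FPKM on SNI day 7, 104 to 109.9 FPKM on SNI day 14 and 80.7 to 91.4 FPKM in sham cords. In that fit 4 and 3 of 6 markers of oligodendrocyte precursors were lower on SNI days 3 and 14, as were 2 and 2 of 5 endothelial and 2 and 2 of 6 motor neuron markers, and 4 and 5 of 5 erythroid markers were higher. Of 13 neuronal markers 2 were higher and 4 lower on SNI day 3 and 4 higher and 3 lower on SNI day 14, and of 7 astrocyte markers 2 higher and 1 lower and then 1 higher and 3 lower. The precursor markers summed to 128 to 131 FPKM on SNI day 3, 114 to 166 FPKM on SNI day 7, 130 to 132 FPKM on SNI day 14 and 93.5 to 165 FPKM in sham cords. The erythroid markers summed to 424 to 517 FPKM on SNI day 3, 571 to 693 FPKM on SNI day 7, 355 to 369 FPKM on SNI day 14 and 189 to 318 FPKM in sham cords. With all 12 libraries 0 of 7 oligodendrocyte markers passed against sham on any day. The cell type markers that did pass in that fit were 5 of 5 erythroid markers, higher on SNI day 7, and a few others. These were 1 of 7 microglial markers, higher on SNI days 3 and 7, and 1 of 6 motor neuron markers, lower on SNI day 3. The part of the cell type markers in the release gene values was not tested.

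**Figure D2:**
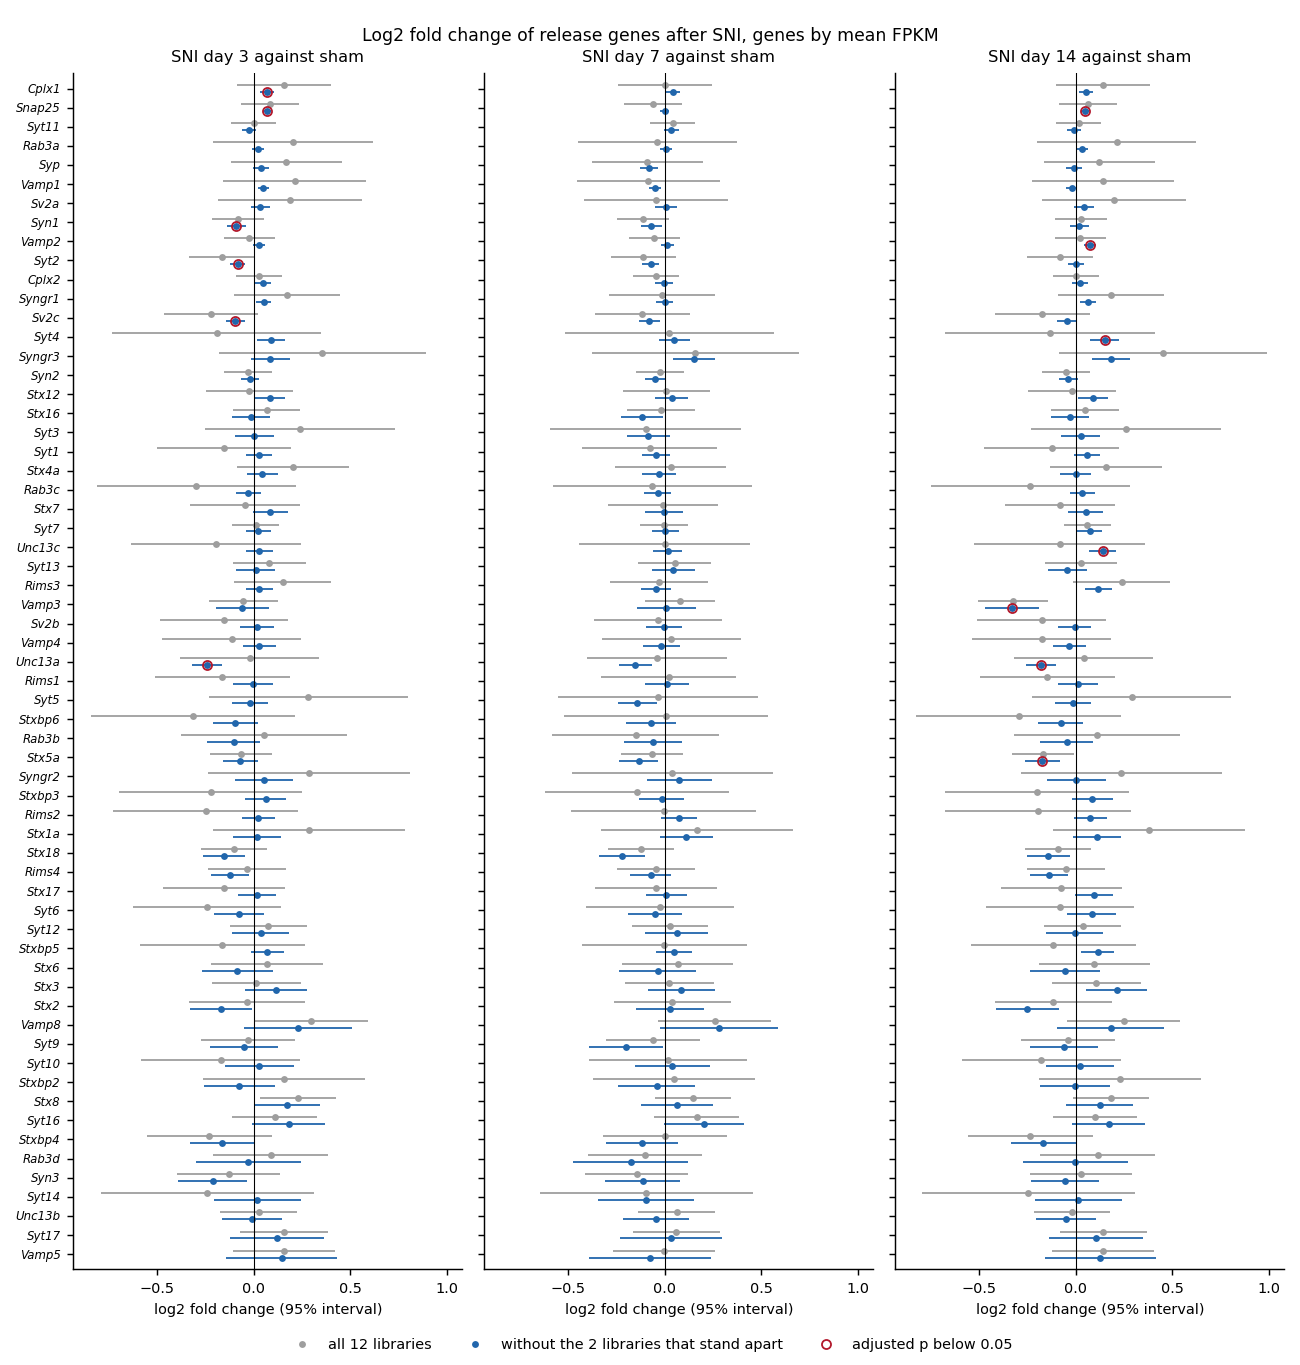
Log2 fold change with its 95% interval for 62 release genes on SNI day 3, 7 and 14 against sham, with all 12 libraries (grey) and without the 2 that stood apart (blue), genes by mean FPKM from top to bottom. With all 12 libraries no gene passed; circles mark genes that passed without the 2, among them Unc13a on SNI days 3 and 14 and Vamp3 on SNI day 14.

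The plasma membrane SNARE Snap25, the partner of syntaxin, had 375, 373 and 375 FPKM on SNI day 3, 355, 359 and 305 FPKM on SNI day 7, and 367, 370.1 and 369 FPKM on SNI day 14. Snap25 was at 356, 357 and 345 FPKM in sham cords. All SNI day 3 and SNI day 14 libraries were above all sham libraries, by a few percent of the level. The log2 fold change was 0.09 ± 0.07 (SE) on SNI day 3 (limma adjusted p = 0.695) and 0.06 ± 0.07 on SNI day 14 (adjusted p = 0.703). In the fit without the 2 libraries it was 0.07 ± 0.01 on SNI day 3 (limma adjusted p = 0.00391) and 0.05 ± 0.01 on SNI day 14 (adjusted p = 0.028).

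Vamp1, the more abundant synaptobrevin by FPKM, had 133, 131 and 131 FPKM on SNI day 3, 122, 123.2 and 81.6 FPKM on SNI day 7, and 125, 125 and 126 FPKM on SNI day 14. Vamp1 was at 127, 128 and 90.6 FPKM in sham cords. Library 3 was the lowest of SNI day 7 and of sham by a wide margin, and the log2 fold change against sham was 0.21 ± 0.17 on SNI day 3 (limma adjusted p = 0.695), and 0.05 ± 0.01 without the 2 libraries (adjusted p = 0.0535). Vamp2, the synaptobrevin of most forebrain synapses, had 81.7, 80.5 and 81.2 FPKM on SNI day 3, 80.1, 80.6 and 77.8 FPKM on SNI day 7, and 84.2, 83.2 and 84.2 FPKM on SNI day 14. Vamp2 was at 79.8, 79.3 and 88.5 FPKM in sham cords. All SNI day 14 libraries were above sham libraries 1 and 2 and below sham library 3, and the log2 fold change of 0.03 ± 0.06 with all libraries passed only without the 2 (0.08 ± 0.01, limma adjusted p = 0.018). Vamp8, an endosomal SNARE, had 3.94, 3.89 and 3.40 FPKM on SNI day 3, 4.05, 3.75 and 3.13 FPKM on SNI day 7, and 3.11, 3.57 and 4.18 FPKM on SNI day 14. Vamp8 was at 2.77, 3.49 and 2.64 FPKM in sham cords. Its log2 fold change of 0.30 ± 0.13 on SNI day 3 reached an unadjusted limma p of 0.0477 (adjusted p = 0.695), and the groups overlapped.

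Vamp3, known as cellubrevin, a SNARE of recycling endosomes found in most cell types including glia, showed the smallest p of any release gene. It had 18.2, 17.2 and 17.8 FPKM on SNI day 3, 18.8, 18.4 and 21.5 FPKM on SNI day 7, and 14.4, 16 and 13.5 FPKM on SNI day 14. Vamp3 was at 18.2, 18.7 and 18.3 FPKM in sham cords. All 3 SNI day 14 libraries were below all 9 remaining libraries. On SNI day 14 its log2 fold change against sham was -0.32 ± 0.08 (95% interval -0.50 to -0.14), with an unadjusted limma p of 0.00241 and an adjusted p of 0.586. Without the 2 libraries that stood apart it was -0.33 ± 0.06 and passed (limma adjusted p = 0.0205), and sham library 3, at 18.3 FPKM, lay with its group. On SNI day 3 and SNI day 7 its log2 fold change was -0.05 ± 0.08 and 0.08 ± 0.08. The whole of Vamp3 (chromosome 4, 151047300 to 151057963, minus strand) lies within Camta1 on the same strand, a gene at 20.7 to 21.4 FPKM on SNI day 3, 21.2 to 29.4 FPKM on SNI day 7, 21.9 to 22.4 FPKM on SNI day 14 and 21.5 to 33.3 FPKM in sham cords, and how reads of such pairs were divided is not given in the sources used here.

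Stx1a, a syntaxin of the presynaptic plasma membrane, had 7.06, 7.06 and 6.43 FPKM on SNI day 3, 7.52, 7.16 and 4.54 FPKM on SNI day 7, and 7.81, 7.14 and 7.09 FPKM on SNI day 14. Stx1a was at 6.73, 6.78 and 3.66 FPKM in sham cords. Its SNI day 14 libraries were above all sham libraries, and the log2 fold change of 0.38 ± 0.22 (limma adjusted p = 0.7) was 0.11 ± 0.05 without the 2 libraries (adjusted p = 0.305). Among the syntaxins outside the synapse, Stx8, an endosomal syntaxin, had 2.74, 2.67 and 2.53 FPKM on SNI day 3, 2.48, 2.37 and 2.57 FPKM on SNI day 7, and 2.50, 2.84 and 2.32 FPKM on SNI day 14. Stx8 was at 2.37, 2.22 and 1.97 FPKM in sham cords. The SNI day 3 libraries lay above all sham libraries, and the log2 fold change was 0.23 ± 0.09 (limma adjusted p = 0.695, the smallest unadjusted p among release genes on that day). Stx5a, the syntaxin of transport between the endoplasmic reticulum and the Golgi, had 8.07, 8.28 and 8.58 FPKM on SNI day 3, 8.04, 7.78 and 9.15 FPKM on SNI day 7, and 7.58, 7.83 and 7.68 FPKM on SNI day 14. Stx5a was at 8.44, 9.03 and 8.66 FPKM in sham cords. On SNI day 14 all libraries were below all sham libraries, with a log2 fold change of -0.17 ± 0.07 (limma adjusted p = 0.7) and, without the 2 libraries, -0.17 ± 0.04 (adjusted p = 0.0486).

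Munc13 proteins prime docked vesicles. Unc13c, the most abundant by FPKM, had 17.5, 17 and 17.8 FPKM on SNI day 3, 17.2, 17.2 and 26.8 FPKM on SNI day 7, and 19, 18.7 and 18.9 FPKM on SNI day 14. Unc13c was at 17.5, 16.6 and 27.4 FPKM in sham cords. Unc13a, the isoform of most excitatory synapses, had 12.6, 13.1 and 12.8 FPKM on SNI day 3, 13.9, 13.4 and 10.9 FPKM on SNI day 7, and 13.4, 13.7 and 13.1 FPKM on SNI day 14. Unc13a was at 14.9, 15.6 and 9.47 FPKM in sham cords. For Unc13a, sham libraries 1 and 2 were the highest of all 12 and sham library 3 the lowest of all 12. With all libraries its log2 fold change was -0.02 ± 0.16 on SNI day 3 (limma adjusted p = 0.954). It became -0.24 ± 0.03 without the 2 libraries (limma adjusted p = 0.0051), the largest difference of the day among the 7 that passed, while library 3 of SNI day 7 minus library 3 of sham gave 0.19 and its SNI day 7 value from libraries 1 and 2 was -0.15 ± 0.04 (adjusted p = 0.125). On SNI day 14 leaving out the 2 libraries turned the sign of both genes, to -0.18 ± 0.03 for Unc13a (limma adjusted p = 0.0248; 0.04 ± 0.16 with all) and 0.14 ± 0.03 for Unc13c (adjusted p = 0.0368; -0.08 ± 0.20 with all).

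Cplx1, a complexin of central synapses, was the most abundant release gene and had 512, 505 and 499.7 FPKM on SNI day 3, 490.2, 503 and 379.7 FPKM on SNI day 7, and 493, 506 and 499 FPKM on SNI day 14. Cplx1 was at 481, 482 and 401 FPKM in sham cords. The SNI day 3 and SNI day 14 libraries were above all sham libraries. Its log2 fold change on SNI day 3 was 0.16 ± 0.11 (limma adjusted p = 0.695) with all libraries and 0.07 ± 0.02 (adjusted p = 0.0357) without the 2.

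Among the synaptotagmins, Syt2, the fast calcium sensor of spinal and brainstem synapses, had 70.7, 70.0 and 70.7 FPKM on SNI day 3, 70.9, 71.1 and 77.8 FPKM on SNI day 7, and 74.3, 75.4 and 74.6 FPKM on SNI day 14. Syt2 was at 75.9, 73.4 and 88.5 FPKM in sham cords. The SNI day 3 libraries were below all sham libraries, with a log2 fold change of -0.16 ± 0.08 (limma adjusted p = 0.695), and -0.08 ± 0.02 without the 2 libraries (adjusted p = 0.0263). Syt11 had 191, 186 and 187 FPKM on SNI day 3, 197, 195 and 189 FPKM on SNI day 7, and 188, 193 and 189.6 FPKM on SNI day 14. Syt11 was at 191, 191 and 182 FPKM in sham cords. Its groups overlapped throughout, and its log2 fold change lay within 0.00 to 0.04 on the 3 days. Syt4, an isoform of dense-core vesicles that is induced by activity, had 30.7, 32 and 32.3 FPKM on SNI day 3, 30.2, 31.3 and 52.8 FPKM on SNI day 7, and 32.3, 32.9 and 33.8 FPKM on SNI day 14. Syt4 was at 30.3, 29.1 and 53.7 FPKM in sham cords. Library 3 of SNI day 7 and of sham was far above the rest, and without both the SNI day 14 difference of 0.15 ± 0.03 passed (limma adjusted p = 0.0361), where all libraries gave -0.13 ± 0.24.

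At the active zone, Rims3, a short RIM that binds calcium channels, had 19.2, 18.5 and 18.6 FPKM on SNI day 3, 17.5, 18.1 and 14.3 FPKM on SNI day 7, and 19.7, 19.8 and 20.4 FPKM on SNI day 14. Rims3 was at 17.9, 18.8 and 14.2 FPKM in sham cords. All SNI day 14 libraries were above all sham libraries, with a log2 fold change of 0.24 ± 0.11 (limma adjusted p = 0.7), and 0.12 ± 0.03 without the 2 libraries (adjusted p = 0.0738). Rab3a, the vesicle GTPase that RIM binds, had 185, 186 and 188 FPKM on SNI day 3, 183, 186 and 116 FPKM on SNI day 7, and 189, 186 and 188 FPKM on SNI day 14. Rab3a was at 184, 182 and 126 FPKM in sham cords. The SNI day 3 and SNI day 14 values lay just above sham libraries 1 and 2 and far above sham library 3. The log2 fold change of 0.21 ± 0.19 on SNI day 14 (limma adjusted p = 0.7) became 0.03 ± 0.01 without the 2 libraries (adjusted p = 0.216).

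Of the vesicle proteins, synapsin 1 (Syn1), which ties reserve vesicles together, had 80.3, 80.2 and 78 FPKM on SNI day 3, 81, 80.3 and 72.3 FPKM on SNI day 7, and 85.6, 84.3 and 87.3 FPKM on SNI day 14. Syn1 was at 85.8, 83.4 and 82.8 FPKM in sham cords. The SNI day 3 and SNI day 7 libraries were below all sham libraries, with log2 fold changes of -0.08 ± 0.06 (limma adjusted p = 0.695) and -0.11 ± 0.06 (adjusted p = 1). The SNI day 3 value was -0.09 ± 0.02 without the 2 libraries and passed (limma adjusted p = 0.0457). Syp, the classical marker of vesicle membranes, had 175, 174 and 171 FPKM on SNI day 3, 157, 162 and 119 FPKM on SNI day 7, and 166, 168 and 169.5 FPKM on SNI day 14. Syp was at 171, 167 and 129 FPKM in sham cords. Its lowest SNI day 3 library was level with its highest sham library, and its log2 fold change on that day was 0.17 ± 0.13 (limma adjusted p = 0.695), which was 0.04 ± 0.02 without the 2 libraries (adjusted p = 0.275). Sv2a, a vesicle glycoprotein, had 102, 98.4 and 101 FPKM on SNI day 3, 100.1, 97 and 64.3 FPKM on SNI day 7, and 99.3, 102 and 102 FPKM on SNI day 14. Sv2a was at 98.8, 97.3 and 71 FPKM in sham cords. Syngr1, a relative of synaptophysin, had 54.8, 55.2 and 54.2 FPKM on SNI day 3, 53.1, 52.5 and 39.8 FPKM on SNI day 7, and 54.7, 55.2 and 55.8 FPKM on SNI day 14. Syngr1 was at 53.4, 52.2 and 41 FPKM in sham cords. For both, library 3 was the lowest of SNI day 7 and of sham and the remaining libraries lay within a few FPKM of each other. Sv2c, an SV2 isoform with a restricted distribution in brain, was lower on SNI day 3 by 0.09 in log2 without the 2 libraries (limma adjusted p = 0.0353) and gave -0.22 ± 0.11 with all of them (adjusted p = 0.695).

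Apart from Vamp3, the widest fold changes with all libraries included genes whose library 3 of SNI day 7 and of sham lay far from the rest. Syngr3, a synaptogyrin that binds the dopamine transporter, had 33.9, 32.2 and 35.4 FPKM on SNI day 3, 36.7, 34.1 and 20.4 FPKM on SNI day 7, and 35.6, 37.1 and 35.8 FPKM on SNI day 14. Syngr3 was at 31.5, 32 and 18 FPKM in sham cords. Its log2 fold change was the highest of the 64 genes on SNI day 3 and SNI day 14, at 0.36 ± 0.24 and 0.45 ± 0.24 (limma adjusted p = 0.695 and 0.7), and it was 0.09 ± 0.04 and 0.18 ± 0.04 without the 2 libraries (adjusted p = 0.286 and 0.0514). Rab3c, a Rab3 isoform, had 20.1, 20.4 and 20.3 FPKM on SNI day 3, 20.2, 20.1 and 33.5 FPKM on SNI day 7, and 21, 22 and 20.6 FPKM on SNI day 14. Rab3c was at 20.6, 20.8 and 36.5 FPKM in sham cords. All but 2 libraries lay between 20.1 and 22 FPKM, and the log2 fold change on SNI day 3 was -0.30 ± 0.23 with all libraries and -0.03 ± 0.03 without the 2 (limma adjusted p = 0.695 and 0.627). By family, median log2 fold changes against sham on SNI days 3, 7 and 14 were 0.07, 0.02 and 0.08 over 6 Vamp genes and 0.01, 0.01 and 0.05 over 13 syntaxins. They were -0.19, 0.00 and -0.16 over 6 syntaxin-binding proteins, near 0 (at most 0.02 on SNI day 14) over 15 synaptotagmins, and 0.29, 0.04 and 0.24 over 3 synaptogyrins. Without the 2 libraries the family medians on SNI days 3 and 14 were 0.04 and 0.03 for the Vamp genes, 0.02 and 0.00 for the syntaxins, -0.08 and 0.02 for the syntaxin-binding proteins, 0.02 and 0.02 for the synaptotagmins, and 0.05 and 0.06 for the synaptogyrins. Stx1a, Syngr3 and Rab3c are given in full by a choice made after their values were seen.

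**Figure D3:**
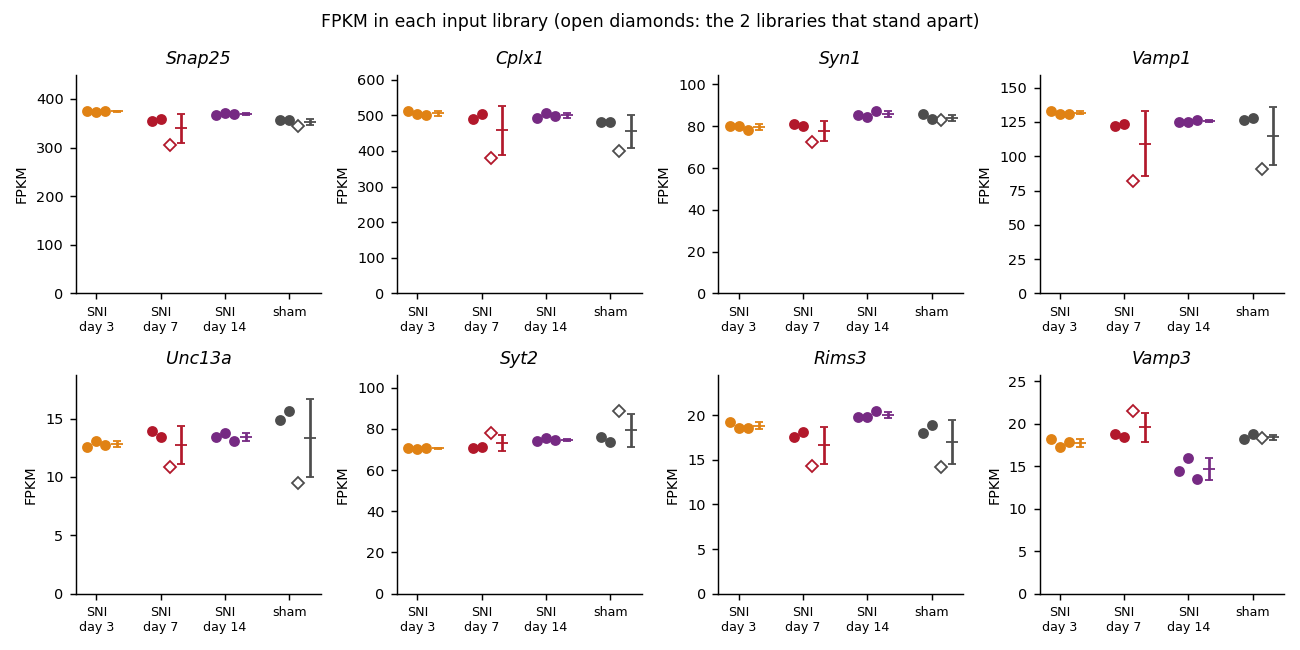
FPKM in each input library for 8 release genes, with SNI days 3, 7 and 14 left of sham, and the mean ± SD of 3 libraries beside the points. Open diamonds are library 3 of SNI day 7 and of sham. Vamp3 has its 3 SNI day 14 libraries at 13.5 to 16.0 FPKM, below every other library.

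Between injured days 0 of the 64 passed as well (limma, all 12 libraries): on SNI day 7 against SNI day 3, SNI day 14 against SNI day 3, and SNI day 14 against SNI day 7, 0.0129%, 0.0129% and 0.0321% of all tested genes passed. At an unadjusted p below 0.05, 0, 1 and 4 release genes were reached in limma, against 4.05%, 1.75% and 4.46%. Groups did not overlap for 12, 26 and 15 of the 64 genes (18.8%, 40.6% and 23.4%), beside 16.4%, 21.6% and 17.2% of tested genes. Neither SNI day 3 nor SNI day 14 holds a library that stood apart. Without the 2 libraries 3, 5 and 4 (4.69%, 7.81% and 6.25%) passed, beside 2.04%, 1.99% and 2.69%. Vamp3 had the smallest p of SNI day 14 against both earlier days, with -0.27 ± 0.08 against SNI day 3 (limma adjusted p = 1) and -0.41 ± 0.08 against SNI day 7 (limma adjusted p = 0.371). Without the 2 libraries these were -0.27 ± 0.05 and -0.34 ± 0.06, and both passed (limma adjusted p = 0.0463 and 0.0243). The genes called in that fit also included Syn1 (0.11), Syt2 (0.08) and Vamp1 (-0.07) on SNI day 14 against SNI day 3, Rims3 (0.16) and Snap25 (0.05) on SNI day 14 against SNI day 7, and Snap25 (-0.07), Syp (-0.12) and Vamp1 (-0.10) on SNI day 7 against SNI day 3, all log2 fold changes.

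Genes that work beside these in the vesicle cycle were looked at through 3 lists. Of 39 further genes of docking, priming and SNARE recycling, 0 rose and 0 fell in any of the 6 comparisons with all libraries (limma). Of the 39, 2, 0 and 1 had an unadjusted p below 0.05 on SNI days 3, 7 and 14 against sham, beside 6.24%, 2.53% and 4.92% of all tested genes. The smallest p on SNI day 3 were those of Rab3il1, an exchange factor for Rab proteins (1.97 ± 0.17 FPKM on SNI day 3 and 1.51 ± 0.21 FPKM in sham, SD, n = 3 each, limma adjusted p = 0.695), and of the scaffold Lin7a (2.83 ± 0.17 FPKM on SNI day 3 and 3.75 ± 0.71 FPKM in sham, limma adjusted p = 0.695). On SNI day 14 they were those of the active zone scaffolds Erc1 (1.65 ± 0.077 FPKM on SNI day 14 and 2.08 ± 0.19 FPKM in sham, limma adjusted p = 0.7) and Ppfia4 (14.8 ± 0.70 FPKM on SNI day 14 and 12.4 ± 2.43 FPKM in sham, limma adjusted p = 0.7). On SNI day 7 they were those of Nsf, the ATPase that takes SNARE complexes apart (91.9 ± 2.81 FPKM on SNI day 7 and 99.4 ± 3.31 FPKM in sham), and Rph3a, a Rab3 effector (159 ± 6.22 FPKM on SNI day 7 and 169.7 ± 1.72 FPKM in sham). In the fit without the 2 libraries, Snap47 was higher (0.10 in log2) and Rph3a (-0.09) and Bsn (-0.20) were lower on SNI day 3, and Napa (0.09) and Nsf (0.07) were higher on SNI day 14. In that fit 7.07% and 4.71% of all tested genes passed on SNI days 3 and 14 against sham. The list's median log2 fold change was -0.05, -0.04 and -0.01 on SNI days 3, 7 and 14, beside 0.03, 0.01 and 0.03 over all tested genes. Of 27 genes of vesicle endocytosis and recycling, 0 rose and 0 fell in any comparison. Of the 27, 4, 0 and 1 had an unadjusted p below 0.05 (limma) on SNI days 3, 7 and 14 against sham, beside 6.24%, 2.53% and 4.92% of all tested genes. The median log2 fold changes of this list were 0.03, -0.02 and 0.10. Dnm2, the ubiquitous dynamin, had the smallest p on SNI days 3 and 14, with 15 ± 0.70 FPKM on SNI day 3 and 17.3 ± 2 FPKM in sham (limma adjusted p = 0.695), and Pacsin1, an endocytic membrane-bending protein, on SNI day 7, with 41.7 ± 3.66 FPKM on SNI day 7 and 45.5 ± 0.24 FPKM in sham (limma adjusted p = 1). The next smallest were Sh3gl3 on SNI day 3 (6.27 ± 0.18 FPKM on SNI day 3 and 7.59 ± 0.81 FPKM in sham), Dnm2 on SNI day 7 (15.9 ± 0.56 FPKM on SNI day 7 and 17.3 ± 2 FPKM in sham) and Bin1 on SNI day 14 (79.2 ± 1.99 FPKM on SNI day 14 and 71.3 ± 5.98 FPKM in sham). With the 2 libraries left out, the synuclein Sncg (0.13) and the clathrin light chain Clta (0.14) were higher on SNI day 3, and Sncg (0.13) and Sncb (0.10) on SNI day 14, in log2. Of 8 vesicular transmitter transporters 3 reached the floor, and none of the 3 passed in limma (0 at an unadjusted p below 0.05 against sham). The glutamate transporter Slc17a6 (VGLUT2) was at 30.8 ± 0.70 FPKM on SNI day 3 and 32.1 ± 4.62 FPKM in sham, the inhibitory transporter Slc32a1 (VGAT) at 48.1 ± 0.27 FPKM on SNI day 3 and 37.8 ± 17.6 FPKM in sham, and the cholinergic transporter Slc18a3 at 16.4 ± 0.61 FPKM on SNI day 3 and 14.5 ± 6.68 FPKM in sham. The wide sham SDs are those with library 3: without the 2 libraries the SNI day 3 log2 fold changes were 0.06, 0.01 and -0.16.

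Release genes started within GC-rich sequence. RefSeq promoter windows (250 bases before to 50 after the start, GRCm38.p6) were matched by symbol for 49 of the 64 genes, 63 windows in all. Their median GC content was 62.3% and their median number of CpG dinucleotides 19, beside 52.7% and 7 over all 32851 windows. TATAA stood within the 50 bases before the start in 1.59% of release windows and in 4.93% of all. All windows are those of 27025 genes, tested or not, while release genes had passed the FPKM floor. Windows of tested genes alone were not compared, so the part of that floor in differences from all windows was not tested. Many neuronal genes carry an RE1 element, bound by the repressor REST outside neurons, so its parts CAGCACC and GGACAG, 2 bases apart, were searched on both strands. With at most 1 mismatch it was found in 1 release window (1.59%), that of Syn1, a textbook REST target, and in 0.186% of all windows, and with at most 2 mismatches in 3 (4.76%) and in 1.92%. The 3 sites are shown because they are the RE1-like letters found, with both parts in capitals and up to 2 of them mismatched. In the order given they lie on chrX:20921131-20921151 (GRCm38.p6, minus strand), chr1:134646487-134646507 (plus strand) and chr3:103575883-103575903 (strand opposite to the gene), at 230, 122 and 240 bases before the start.
Syn1: attCAGCACCgcGGTCAGagc
Syt2: gctGCGCACCgaGGACAGtcc
Syt6: atcCTGAACCctGGACAGccc
The genes holding them were at 81.8, 74.4 and 5.32 FPKM. A match here describes letters only, and binding was not measured.

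m6A is the most frequent internal mark of mRNA, placed mainly in long exons and near stop codons and read by proteins that act on stability and translation. Release genes were widely marked. At least 1 peak was listed for 60 of the 64 on SNI day 3, 58 on SNI day 7, 62 on SNI day 14 and 56 in sham, beside 85.5%, 76.6%, 85.1% and 74.4% of all tested genes. In all 4 lists 53 of the 64 had a peak (82.8%, beside 70.0% of tested genes). The lists held 149, 119, 152 and 116 peaks of release genes, or 0.371%, 0.349%, 0.393% and 0.355% of the 40195, 34136, 38655 and 32669 peaks. Their median fold enrichment (m6A over input, the authors' value for each peak) was 3.52, 4.01, 3.24 and 5.41, beside 3.85, 4.61, 3.95 and 5.29 for tested genes. By the authors' annotation 61.1%, 64.7%, 61.8% and 58.6% of them lay in 3′ UTRs, beside 56.5%, 56.1%, 57.2% and 54.5%. Each group has 1 peak list with no value per library, so no difference between lists could be tested.

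**Figure D4:**
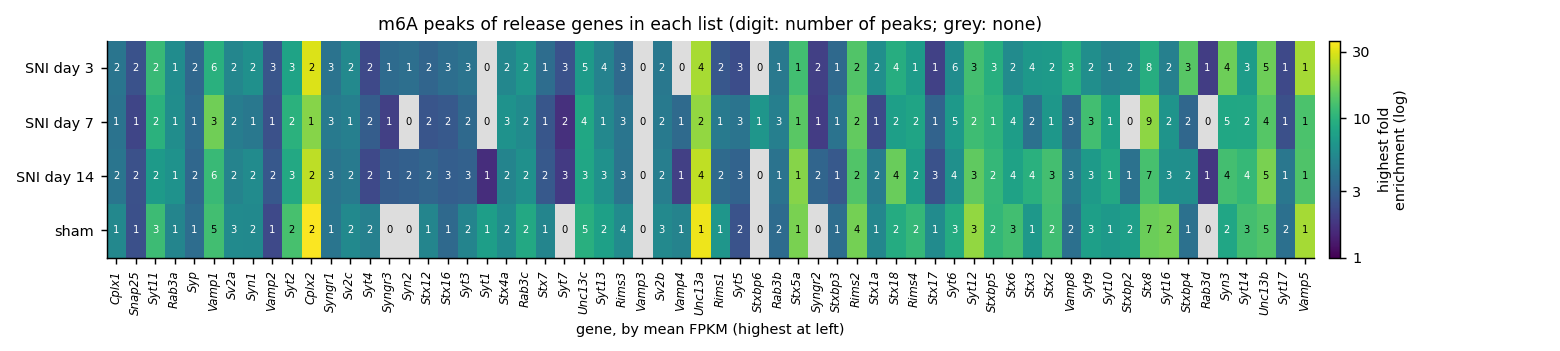
m6A peaks of 62 release genes in the lists of SNI days 3, 7 and 14 (upper rows) and sham (lowest row), genes by mean FPKM. Digits give the number of peaks, colour gives the highest fold enrichment (log scale) and grey marks genes with no peak. Vamp3 is grey in all 4 lists, and Cplx2 and Unc13a are brightest.

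Cplx2 and Unc13a were among the 3 highest folds of release genes in every list. Cplx2, the second complexin, had a peak of 4 blocks from the first base of the gene, base 54371349 of chromosome 13. The authors' annotation placed it in the 3′ UTR. Its fold was 29.9, 18.7 and 25.1 on SNI days 3, 7 and 14, and 35.2 in sham. In sham it ended earlier, at base 54380722, and a further sham peak at 54380871 to 54381080 (fold 1.69) overlapped the spans of the injured days. Unc13a had exonic peaks within chr8:71658095-71660468 with a fold of 22.6, 20.1 and 25.4 on SNI days 3, 7 and 14 and 32.8 in sham. Those of SNI days 3 and 14 ended at base 71660468, that of SNI day 7 at 71658779 and that of sham at 71658719. The peaks of SNI days 3 and 14 covered 26.3% and 20.5% reciprocally with the sham peak. For both genes the highest fold was in the sham list, at peaks with other edges than those of the injured days. Vamp5, a SNARE of muscle and other cells outside neurons, had a single 3′ UTR peak with a fold of 22.3, 13.0 and 13.5 on the injured days and 22.1 in sham, in a gene at 0.922 FPKM. Further peaks among the 5 strongest of a list were those of Unc13b and Syn3 (both 16.4) on SNI day 3, Stx8 (19.7), Vamp1 (16.5) and Rims2 (15.2) on SNI day 7, Stx5a (18.7), Unc13b (17.6) and Stx18 (15.8) on SNI day 14, and Syt12 (20.0) and Stx5a (17.6) in sham. The most abundant release genes had moderate folds, with a highest fold of 4.01, 3.94, 4.05 and 5.36 for Cplx1 and of 2.48, 2.10, 2.42 and 2.40 for Snap25 on SNI days 3, 7 and 14 and in sham.

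Release genes without a peak in at least 1 list numbered 11. Vamp3 had none in any list by the authors' gene column, as did 10.6% of tested genes. The authors' annotation of peak positions named Vamp3 for 2, 1 and 2 peaks on SNI days 3, 7 and 14 and for 1 in sham. No peak block of any list lay inside the gene. Stxbp6, an amisyn that binds syntaxin, had 1 only on SNI day 7, with a fold of 6.58 and a log10 p of -1.37, near the edge of what the lists hold. Synapsin 2 (Syn2) had a 5′ UTR peak with a fold of 3.70 on SNI day 3 and 2.98 on SNI day 14 and none on SNI day 7 or in sham. Rab3d had a weak 3′ UTR peak on the same days (1.91 and 1.79), and Syt1 a 3′ UTR peak on SNI day 14 (1.60) and an exonic one in sham (7.45, log10 p -1.65). Syngr2, Syngr3 and Syt7 had peaks on the 3 injured days and none in sham, with folds of at most 3.20, 3.48 and 2.47. Stxbp2 was without one on SNI day 7 and Vamp4 on SNI day 3.

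The injured lists reached lower folds than the sham list: the lowest fold of a release gene peak was 1.16, 1.22 and 1.15 on SNI days 3, 7 and 14 and 1.59 in sham. This bears on peaks listed on 1 side only. On SNI days 3, 7 and 14, 50, 26 and 55 release gene peaks, in 32, 20 and 41 genes, shared no base with a sham peak. They were 33.6%, 21.8% and 36.2% of the release gene peaks, beside 35.1%, 22.3% and 33.8% of the peaks of all tested genes, and their median folds were 2.05, 2.38 and 2.01, beside 2.51, 2.86 and 2.45. In sham, 12, 18 and 10 peaks shared no base with one of the day. They were 10.3%, 15.5% and 8.62%, beside 10.47%, 16.0% and 10.7% of tested genes' sham peaks, with median folds of 5.38, 5.89 and 4.63, beside 3.56, 3.59 and 3.81. With a fold minimum of 2 and a p maximum of 1e-05, 57, 53 and 57 release genes had a peak on the injured days and 54 in sham, beside 73.0%, 67.8%, 73.2% and 66.9% of tested genes.

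Peaks were called shared when the spans in the same gene covered at least 50% of each other. Of the release gene peaks, 60 of 149 (40.3%) on SNI day 3, 72 of 119 (60.5%) on SNI day 7 and 58 of 152 (38.2%) on SNI day 14 were shared with sham, beside 42.2%, 56.0% and 44.0% for tested genes. These were 51.7%, 62.1% and 50.0% of the 116 sham peaks. The fold was lower than in sham at 41 of 60, 47 of 72 and 35 of 58 shared peaks, or 68.3%, 65.3% and 60.3%, beside 69.1%, 64% and 65.8% for tested genes. The median log2 ratio of folds was -0.21, -0.21 and -0.22 for release genes and -0.29, -0.19 and -0.24 for tested genes. A set of 46 sham peaks in 39 release genes was shared with all 3 injured lists. Fold ratios of shared peaks past 1 in log2 numbered 7, 6 and 6. The most negative were at Stx8 on SNI day 3 (5.53, against 16.1 in sham), Syt16 on SNI day 7 (6.43, against 17.0) and Syt14 on SNI day 14 (3.22, against 12.4). The most positive were at Sv2a on SNI day 3 (5.15, against 1.99 in sham) and SNI day 14 (4.96, against 1.99) and at Stx8 on SNI day 7 (19.7, against 7.12). The Sv2a peaks of SNI days 3 and 14 also covered a further sham peak of that gene, with a fold of 5.55. The 3′ UTR of Stx8 was cut into several peaks with different edges in each list, and a neighbouring Stx8 peak of the sham list had a fold of 15.

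**Figure D5:**
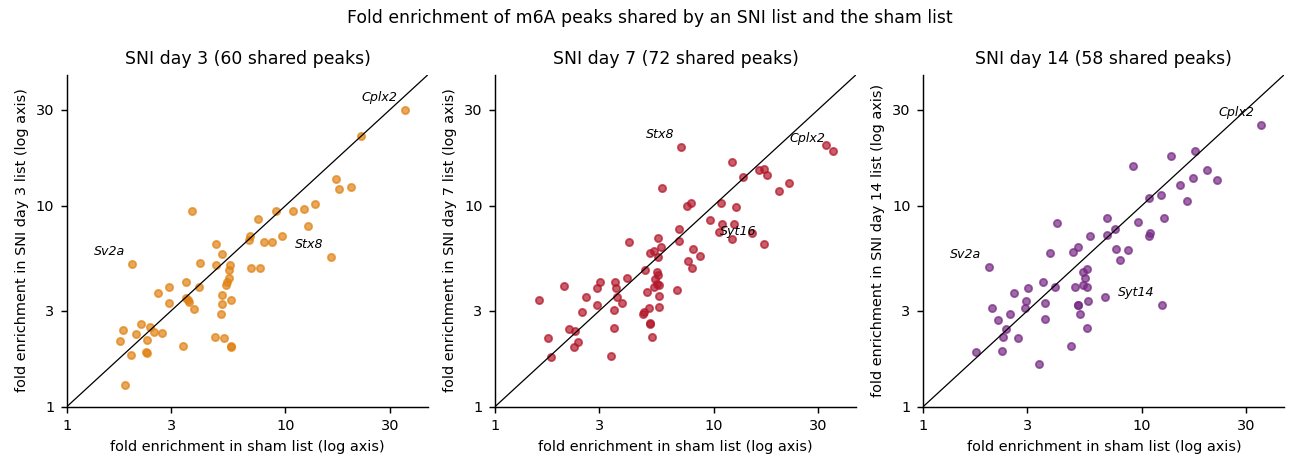
Fold enrichment of release gene peaks shared with sham (60, 72 and 58 peaks), on SNI day 3, 7 and 14 (vertical axis) against sham (horizontal axis), both on log axes, with the line of equality. More points lie below the line than above it on each day, 41, 47 and 35 of them.

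Peaks of highest fold that were not shared by this rule mostly covered the same bases with other edges. On SNI day 3 those listed after injury were in Unc13a (22.6), Unc13b (16.4) and Syn3 (16.4), and those of sham were in Unc13a (32.8), Syt16 (17.0) and Stx8 (15), and all 6 shared bases with a peak on the other side. The peaks of Unc13b and Syn3, genes at 1.05 and 1.11 FPKM, had a log10 p of only -3.79. On SNI day 7 they were in Unc13b (10.3), Syt11 (9.86) and Syt14 (8.55) after injury and in Stx2 (12), Syt11 (11.7) and Syt14 (11.6) in sham, of which the 5′ UTR peak of Stx2, a syntaxin of many tissues, shared no base. On SNI day 14 they were in Unc13a (25.4), Stx2 (12.3) and Syn3 (12.3) after injury, the last 2 without a shared base and with a log10 p of -3.44 and -3.03, and in Unc13a (32.8), Syt16 (17.0) and Stx6 (12.1) in sham.

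The lists also held peaks at the beginning of release gene transcripts. The first 50 transcribed bases of the RefSeq windows lay within a peak block for 20 of 49 matched release genes (40.8%), in at least 1 list, beside 31.8% of 10905 matched tested genes. The letters GGAC are the core of the sequence that the m6A methyltransferase prefers. Read in the sense of the transcript, they stood within those bases in 14 of 63 release windows (22.2%) and in 18.9% of all windows. They stood in 3 of the 20 windows inside a peak (15%), a lower share than in the release windows or in all windows. Of these 3, the sites of Sv2a and Stxbp5 are shown because they carry the letters within a measured 5′ peak, with each GGAC in capitals, of which the Stxbp5 site holds 2. The Sv2a site lies at chr3:96181242-96181269 (GRCm38.p6, plus strand), under the 5′ UTR peak listed on SNI days 3 and 14 and in sham. That of Stxbp5, which encodes tomosyn, an inhibitor of SNARE assembly, lies at chr10:9900991-9901018 (minus strand), under peaks of SNI days 3 and 14. Those peaks had folds of 5.39 and 6.78. Within their spans the sham list held a 5′ UTR peak of 61 bases, at 9900869 to 9900929, with a fold of 8.17, which does not reach the site.
Sv2a: agccctgtggctGGACcccctccctcac
Stxbp5: aggccgagcccgGGACctgccgggGGAC
At the 5′ UTR of Sv2a the lists drew different edges: 1 peak on SNI day 3 (5.15) and on SNI day 14 (4.96), 1 on SNI day 7 that began further downstream (4.54), and 2 in sham (1.99 and 5.55). Its 3′ UTR peak had a fold of 3.68, 3.50 and 3.68 on SNI days 3, 7 and 14 and 2.60 in sham.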

How the data were processed

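Input RNA of 12 libraries was analysed as FPKM. HISAT2, StringTie, edgeR and ChIPseeker are named, per the submitters' processing notes, without versions, and neither the peak caller nor the genome build is given in the sources used here. The deposited table held the authors' FPKM values per gene. The deposited peak lists held 1 list per group, with a fold enrichment (ratio of m6A to input), a base 10 logarithm of the peak p-value (treated as a score, since it falls far below -100) and a width in bases, per the file headers. Nothing states whether peaks were called on pooled libraries. The library kit marked strand per the labels, and whether counting used it is not given. Peak starts count from 0 in the files and were raised by 1. Each peak was counted for the gene in the authors' gene column, which differed from their ChIPseeker annotation for 46, 34 and 40 release gene peaks on SNI days 3, 7 and 14 and 31 in sham.

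Genes with a mean of at least 0.5 FPKM (15564) were tested with limma 3.58.1 (R 4.3.3) as log2(FPKM + 0.5), with a mean-variance trend, 4 group means in 1 fit, 8 residual degrees of freedom and Benjamini-Hochberg adjustment within each comparison. Fold changes are on that scale and understate the change of low genes. A gene passed at an adjusted p below 0.05. The script was tested on simulated data. The members and lists were chosen with earlier results of these data known. The values of 2 of the 64 genes, which enter all counts and medians, are not reported here. Genes described in full were otherwise those that passed, the 3 with the smallest p in each comparison and the most abundant of each family. List genes were those that passed or the 2 with the smallest p. Peaks were the 5 of highest fold per list and the 3 of highest fold not shared, per day and direction, in genes of at least 1 FPKM. The whole-count depth is unknown, so no counting interval is given. Of the 64 genes 15 overlap another tested gene, 5 of them on the same strand and 11 on the opposite strand. All 64 overlap the RefSeq gene of the same symbol in GRCm38.p6, and sequences are RefSeq's of that build. Alternatives were other pseudocounts and floors, another scaling, fits of only the 2 groups, a replicate block, libraries left out or averaged, and other peak thresholds and overlaps. Python 3.11.15, pandas 2.3.3, numpy 2.4.6 and matplotlib 3.10.9 were used.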

Additional observations from a re-analysis of the deposited data

How the results depend on the processing

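Of 396 values (18 results of single genes under 22 alternatives), 383 kept their direction and their side of the threshold, 13 passed where they had not, and 0 reversed. Outside those 18 signs did turn: without both libraries that stood apart, 23, 15 and 28 of the 64 log2 fold changes against sham changed sign on SNI days 3, 7 and 14 (35.9%, 23.4% and 43.8%, beside 33.2%, 22.9% and 34.01% of tested genes), among them Syt4, Unc13a and Unc13c on SNI day 14, which passed in that fit. Without both libraries that stood apart, the release genes that passed numbered 7 on SNI day 3 and 7 on SNI day 14 against sham, 3 on SNI day 7 against SNI day 3, 5 on SNI day 14 against SNI day 3 and 4 on SNI day 14 against SNI day 7, and the smaller spread between the libraries kept is part of that setting. Fitting only the 2 groups compared gave 1 on SNI day 14 against SNI day 3, where 155 of 15564 tested genes (0.996%) passed. There 14 of the 64 release genes had an unadjusted p below 0.05 in limma. The share of tested genes at an unadjusted p was not computed for this fit or for the replicate block, so those counts have no comparison. Leaving out any 1 library gave 0 to 0 in every comparison. The labels share replicate numbers without saying that they pair libraries, and deviations of same-numbered libraries correlated at -0.105 to 0.793, with not every pair above 0.1. The replicate block gave 0 in all 6 comparisons (limma, 3, 1, 4, 1, 1 and 4 at an unadjusted p below 0.05). Median log2 fold changes moved by less than 0.096, the SD between libraries of a group of the median release gene level. That SD is wider than the medians themselves and includes the 2 libraries that stood apart, so staying within it shows little. The medians changed sign near 0, as on SNI day 14 when libraries were scaled to a fixed sum (-0.01). Peaks shared with sham at 1 base numbered 99 on SNI day 3 and 97 on SNI day 14, and the sham peaks 104 and 106. At 80% they were 31, 45 and 36 on SNI days 3, 7 and 14 and as many in sham. Counted over exonic blocks, an alternative chosen after seeing the data, they were 77, 82 and 75. Without depth or counts, the precision of low genes cannot be given.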

Other observations

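Of the 7 release genes below the floor, Syt15 had the highest level, with a mean of 0.243 FPKM and at most 0.401 FPKM in a library. Syngr4, a testis-rich synaptogyrin, averaged 0.0300 FPKM and reached 0.237 FPKM in 1 library. Complexins of retinal ribbon synapses were near 0, with at most 0.0749 FPKM for Cplx3 and 0.124 FPKM for Cplx4. Stx11, a syntaxin of immune cells, was at 0.0919 FPKM or less.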
